A study of Caenorhabditis elegans with 7 samples.

Results

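The 6 genes described here encode the enzymes that let a nematode turn fat and small acids into sugar: icl-1 (C05E4.9), pyc-1 (D2023.2), pck-1 (W05G11.6), pck-2 (R11A5.4), pck-3 (H04M03.1) and fbp-1 (K07A3.1). They were taken by their symbols, out of 44968 annotated features of the Caenorhabditis elegans count tables. Of the 6 genes, 5 were expressed enough to be among the 14867 genes tested, and pck-3 was not. The RNA came from unfed larvae of stage L1, the first of the larval stages, of the wild-type strain N2, and libraries of polyadenylated RNA were grouped by what the parents had been fed. Parents of the AL group fed ad libitum on HB101 bacteria at 25 mg per mL, and parents of the DR group under dietary restriction at 3.1, for which the labels and the deposited notes write different units (ml per mL and mg per mL). Both groups of parents were raised at 1 embryo per 100 µL of S-complete for 96 hr after N2 stocks had been kept well fed at 20 °C on OP50, and both groups of larvae hatched from bleached embryos in S-basal without food and were frozen after 24 hr. There were 3 AL libraries (A, B and C) and 4 DR libraries (A, B, C and D), which the submitters call biological replicates. They hold whole larvae, so that fewer cells of a type and less RNA per cell cannot be told apart.

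In the glyoxylate cycle, acetyl-CoA from fatty acids bypasses the steps of the citric acid cycle that release carbon dioxide, and its carbon is kept as malate. In C. elegans both enzymes of this bypass, isocitrate lyase and malate synthase, are joined in the single protein ICL-1. Pyruvate carboxylase (PYC-1) makes oxaloacetate from pyruvate, phosphoenolpyruvate carboxykinase (PEPCK, the PCK proteins) turns oxaloacetate into phosphoenolpyruvate, and fructose bisphosphatase (FBP-1) bypasses the one-way step of phosphofructokinase on the way to sugar phosphates. Arrested L1 larvae live on stored lipid and on trehalose and glycogen, which is the setting in which the bypass is best known in this animal.

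Libraries held between 16626117 and 22952310 counts in annotated features. Between 7.54% and 12.2% of these were rRNA, except in DR D with 22.5%. The names of the deposited files carry a pair of prefixes, the first shared by AL A, DR A, DR B and DR C, the second carried by AL libraries B and C and by DR D, and the labels do not say what they stand for. Library AL A stood apart for icl-1 and pyc-1, so that results on these genes are given with and without it. Levels are given as CPM, counts relative to the library total, scaled by TMM factors, and fold changes are DR over AL.

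Parental diet was compared to see whether it left a difference in the RNA of these enzymes in offspring that had not eaten. None of the 5 tested genes changed at an adjusted p of 0.05 (edgeR quasi-likelihood test with Benjamini-Hochberg adjustment over all genes), beside 0.0135% of all genes tested, which is 2 genes, both higher in DR progeny. At an unadjusted p of 0.05, 1 of the 5 passed, pck-2, where 10.7% of all tested genes did, and 5.35% did so with less RNA in DR progeny. The gene pck-2 had less RNA in every DR library than in any AL library, pck-1 and fbp-1 differed by little, and the lower group means of icl-1 and pyc-1 in DR progeny rested on the high values of AL A. The median log2 fold change of the 5 genes was −0.26, with 3 below 0 and 2 above, beside a median of 0.0078 over all tested genes, of which 48.4% were below 0. This median is the value of pyc-1 and turned without AL A, to 0.052 with 1 gene below 0 and 4 above.

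**Figure D1:**
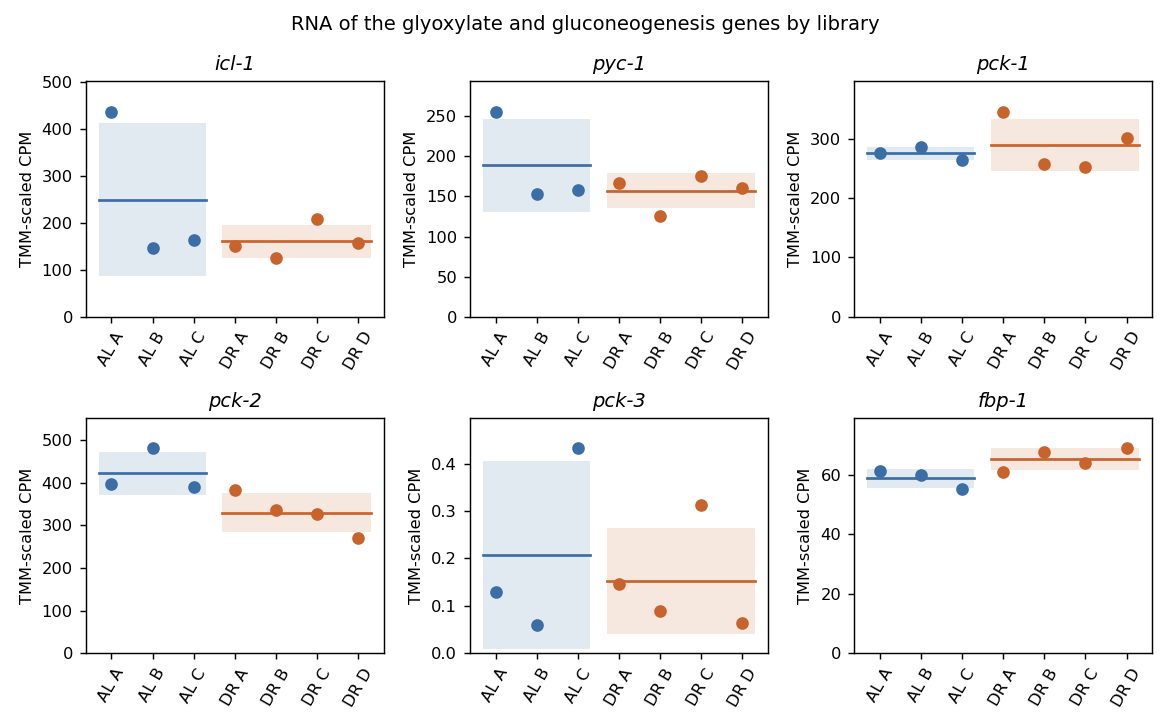
TMM-scaled CPM (vertical axes, each starting at 0) of the 6 genes in each of the 7 libraries, AL in blue and DR in orange; lines are group means and bands are ± 1 SD, cut at 0. In AL A icl-1 stood at 437 CPM and pyc-1 at 256 CPM, above all other libraries, and pck-2 was below 389 CPM in every DR library.

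The bypass gene icl-1 was read at 437 CPM in AL A, 147 in AL B and 163 in AL C. In DR progeny it was read at 151 CPM in DR A, 126 in DR B, 209 in DR C and 157 in DR D. Library AL A was thus the highest by a wide margin, AL B and AL C lay within the range of the DR libraries, and 3 of the 4 DR libraries lay between the lowest and the highest AL library. The group means were 249 ± 163 CPM (SD, n = 3) in AL and 161 ± 35 CPM (SD, n = 4) in DR progeny. The log2 fold change was −0.63 ± 0.44 (SE), with a 95% interval from −1.71 to 0.45 (adjusted p = 0.636, edgeR quasi-likelihood test). Without AL A it was 0.052 ± 0.18 (SE, adjusted p = 0.942, edgeR), so the direction turned. In the fit to libraries of the first file-name prefix, where AL A is the single AL library, it was −1.43, and in the fit to the second, where DR D is the single DR library, it was 0.029. The authors' deposited table, from an edgeR exact test, gives icl-1 a log2 fold change of −0.63, a p-value of 0.0301 and an adjusted p-value of 0.425. Here its unadjusted p over all 7 libraries was 0.1996 in the edgeR quasi-likelihood test and 0.06 in the edgeR exact test.

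The mitochondrial enzyme gene pyc-1 followed the same order of libraries at its upper and lower ends. It was read at 256 CPM in AL A, 153 in AL B and 158 in AL C, and at 166 CPM in DR A, 126 in DR B, 176 in DR C and 161 in DR D. As for icl-1, AL A was the highest library, DR C the highest and DR B the lowest of the DR libraries, and AL B and AL C lay inside the DR range. The group means were 189 ± 58.1 CPM (SD, n = 3) and 157 ± 21.6 CPM (SD, n = 4), and the log2 fold change was −0.26 ± 0.19 (SE), with a 95% interval from −0.69 to 0.16 (adjusted p = 0.636, edgeR). Without AL A it was 0.020 ± 0.14 (SE, adjusted p = 0.976, edgeR), and in the fits to libraries of the first and the second prefix it was −0.71 and 0.060. The authors' deposited table gives −0.26 with an adjusted p-value of 0.689.

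The excess in AL A was set beside that of all 9903 tested genes with a mean of at least 5 CPM, as a description chosen after the values of AL A had been seen. On the log2 scale, icl-1 was 1.48 higher in AL A than on average over the other 6 libraries, and 4 genes had a larger excess. For pyc-1 the excess was 0.71, and 37 genes had a larger one. For pck-1, pck-2 and fbp-1 it was −0.036, 0.14 and −0.030, beside a median of 0.013 over all these genes, of which 5% lay above 0.32. In AL libraries the SD of log2 CPM was 0.87 for icl-1, and 0.424% of genes had a larger one, while for pck-1 it was 0.056, and 84.3% of genes had a larger one. Among the libraries, AL A was not the one in which genes most often peaked: 12.8% of genes were highest there, against 22.8% in DR D.

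The gene with the largest excess in AL A was acs-2, which encodes an acyl-CoA synthetase that feeds fatty acids into mitochondrial oxidation and is known in C. elegans to rise on fasting. It was read at 34.6 CPM in AL A, at 6.38 and 5.09 CPM in AL B and AL C, and at 7.65, 3.61, 8.19 and 18.8 CPM in DR A to DR D. The lysosomal lipase gene lipl-3, also known to rise on fasting, was the sixth in this order, with 15.3 CPM in AL A, 1.95 and 3.41 CPM in AL B and AL C, and 3.15, 6.23, 13.7 and 22 CPM in DR A to DR D. Its highest value was thus in DR D and not in AL A, and the values of acs-2 and icl-1 in DR D were the second and the fourth highest of the 7. The other genes among the first 5 were tag-293, F46C5.1 and T06C12.14. The alcohol dehydrogenase gene adh-1 followed lipl-3, at 709.8 CPM in AL A and between 143.5 and 572.5 CPM in the other libraries.

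Over the 7 libraries pyc-1 was the second most similar gene to icl-1 of 9902 others (Pearson's r = 0.964 and Spearman's rho = 0.857 on log2 CPM, given as a description over 7 points that share library preparation and scaling). Without AL A, in which both genes were highest, the Pearson value was 0.845 over 6 libraries, and the rank was not computed. The 4 genes closest to icl-1 were the Argonaute gene ppw-2 (0.969), pyc-1, mmad-1 (0.958) and immt-2 (0.955). The genes closest to pyc-1 were T28B8.1 (0.974) and cts-1 (0.971), which encodes citrate synthase, the enzyme that joins acetyl-CoA to oxaloacetate. Citrate synthase RNA was read at 645 CPM in AL A, 442 in AL B and 438 in AL C, and at 455, 382, 508.5 and 496.5 CPM in DR A to DR D. It was therefore also highest in AL A and lowest in DR B. The other genes did not follow icl-1: its Pearson value was −0.168 with pck-1, 0.125 with pck-2 and −0.155 with fbp-1.

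**Figure D2:**
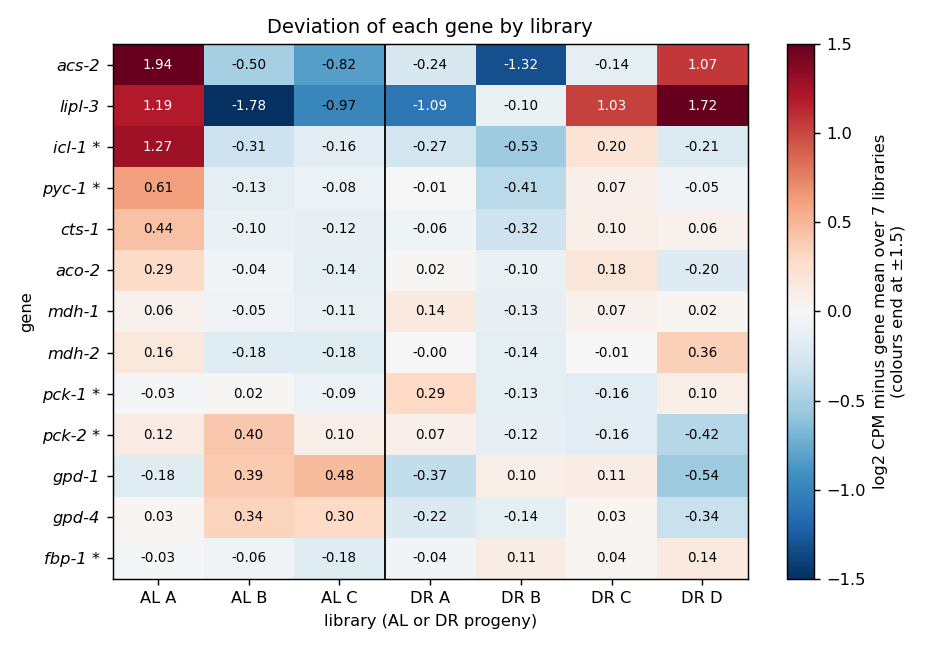
Log2 CPM of each gene minus its mean over the 7 libraries (colour and printed value), with AL libraries left and DR libraries right of the line; an asterisk marks the described genes that were tested, and the other rows are genes of fatty acid breakdown, the citric acid cycle and glycolysis chosen after their values were seen. The values of icl-1, pyc-1 and cts-1 were 1.27, 0.61 and 0.44 in AL A and were lowest in DR B, at −0.53, −0.41 and −0.32.

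Of the PEPCK genes, pck-2 was read at 397 CPM in AL A, 481 in AL B and 389 in AL C. In DR progeny it was read at 383 CPM in DR A, 336 in DR B, 327 in DR C and 272 in DR D. Every DR library lay below every AL library, although DR A and AL C were only a few CPM apart. Groups that did not overlap with DR lower were found for 1 of the 5 genes, against 5.88% of all tested genes. The means were 422 ± 50.8 CPM (SD, n = 3) and 329 ± 45.8 CPM (SD, n = 4), a ratio of 0.780. The log2 fold change was −0.36 ± 0.13 (SE), with a 95% interval from −0.63 to −0.081, an unadjusted p of 0.0156 and an adjusted p of 0.376 (edgeR), which placed it 610 in the order of p over all tested genes. It stayed negative with each library left out, between −0.44 and −0.25. In the fits to libraries of the first and the second prefix it was −0.19 and −0.67, the second with an adjusted p of 0.0397 (edgeR), where 425 genes were called lower and 191 higher against the single library DR D. The authors' deposited table gives −0.36, a p-value of 0.0112 and an adjusted p-value of 0.302.

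Some other measures also differed between the libraries. The rRNA share was 22.5% in DR D, where pck-2 was lowest. In DR B and DR C, where pck-2 was next lowest, the share was at most 11.5%. In AL B, where pck-2 was highest, it was 11.8%. It was 12.2% in DR A, and it was lowest in AL A and AL C, at 7.54% and 8.94%. With the rRNA share in the model the log2 fold change of pck-2 was −0.27 ± 0.14 (SE, unadjusted p = 0.0806, adjusted p = 0.899, edgeR). No gene was called in that fit in either direction, and genes with a smaller unadjusted p, such as aco-1 and daf-2, had the same adjusted p. The summed level of 21 intestine marker genes lay between 16803 and 17775 CPM in AL libraries. In DR libraries it lay from 10852 to 15236 CPM, lowest in DR D, and none of the 21 was at 0 in any library. The largest terms of this sum were asp-6 and asp-1, with AL means of 4987 and 4653 CPM. Averaged as log2 CPM centred per gene, the markers stood at 0.097 to 0.18 in AL and −0.17 to −0.034 in DR libraries. Of these markers 17 had a log2 fold change below 0, the median was −0.21, and none passed the test. The 4 above 0 were elt-2 (0.16), pept-1 (0.12), pgp-1 (0.041) and elt-7 (0.0004). The lowest values were those of the desaturase gene fat-6 (−0.53) and the aspartyl protease gene asp-1 (−0.52). The part of the rRNA share or of intestine RNA in the difference of pck-2 was not tested. In the annotation used here, exons of pck-2 share 9 bases with the gene suro-1 on the opposite strand, and R11A5.6 lies opposite its introns. The libraries keep no strand, so reads from shared bases cannot be assigned. Reads over icl-1, pyc-1, pck-1 and fbp-1 had no overlapping gene to compete with.

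The paralogue pck-1 did not go the same way as pck-2. It was read at 276 CPM in AL A, 286 in AL B and 265 in AL C, and at 346 CPM in DR A, 257 in DR B, 252 in DR C and 302 in DR D. The DR libraries lay on both sides of the narrow AL range, 2 above and 2 below. The means were 276 ± 10.7 CPM (SD, n = 3) and 289 ± 43.8 CPM (SD, n = 4), with a log2 fold change of 0.070 ± 0.12 (SE) and a 95% interval from −0.19 to 0.33 (adjusted p = 0.855, edgeR). Without DR A, its highest library, it was −0.026. The authors' deposited table gives 0.071 with an adjusted p-value of 0.929. Whether the fold changes of pck-1 and pck-2 differed from each other was not tested.

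The third paralogue, pck-3, was hardly read. Its counts were 3, 1 and 9 in AL A, B and C, and 3, 2, 6 and 1 in DR A, B, C and D. These come to between 0.059 and 0.432 CPM, and in 5 of the 7 libraries they do not exceed the 3 counts that a reading of 0 allows, so that no difference was detectable at this depth. Fitted with no filter on low counts, its log2 fold change was −0.45 ± 0.83 (SE, adjusted p = 0.870, edgeR). It is not among the genes of the authors' deposited table, which was limited to genes with CPM above 1 in 3 libraries, and was found by its symbol in the Ensembl annotation.

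Levels can be set side by side only per length. Per kilobase of annotated exons, the mean level over the 7 libraries was 137.5 CPM per kb for pck-1, 111 for pck-2, 63.4 for icl-1, 42.7 for pyc-1, 30.5 for fbp-1 and 0.0889 for pck-3. Among tested genes with an annotated length, 95.5% had a lower level per kb than pck-1 and 81.9% a lower level than fbp-1. Exons of pck-2, pooled over its 5 annotated transcripts, cover 3318 bases but only 2028 coding bases, and those of fbp-1 cover 2048 with 1023 coding. Per kilobase of coding sequence the order of the neighbours therefore turned, with 182 CPM per kb for pck-2 and 145 for pck-1, and with 61.2 for fbp-1 and 48.4 for pyc-1. Which of pck-1 and pck-2 had more RNA molecules was not settled by these lengths. The place of icl-1 rests in part on AL A, where it stood at 139.6 CPM per kb of exons, above pck-1 (133.9) and pck-2 (119.6). Over the other 6 libraries it had 50.7 CPM per kb of exons, and per kilobase of coding sequence its 54.6 CPM per kb lay below the 61.4 of fbp-1. The gene pck-3 was last on either scale.

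The size of the share of pck-1 in the summed PEPCK RNA depends on the lengths used, while the order of the libraries does not, since lengths scale all libraries alike. Per kilobase of exons it was 52.8%, 48.9% and 52.2% in AL A, B and C, and 59.2%, 55.2%, 55.3% and 64.1% in DR A, B, C and D. All DR libraries lay above all AL libraries, with DR D the highest. The means were 51.3% ± 2.09 (SD, n = 3) and 58.5% ± 4.19 (SD, n = 4). Per kilobase of coding sequence the means were 40.5% ± 2.01 and 47.7% ± 4.35. This share was chosen with the values of the genes known and is given as a description with no test. For pck-3 the share per kilobase of exons was at most 0.0886%. The summed PEPCK level per kilobase of exons was 261 ± 20.0 CPM per kb (SD, n = 3) in AL and 240 ± 29.3 CPM per kb (SD, n = 4) in DR progeny, and these groups overlapped.

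**Figure D3:**
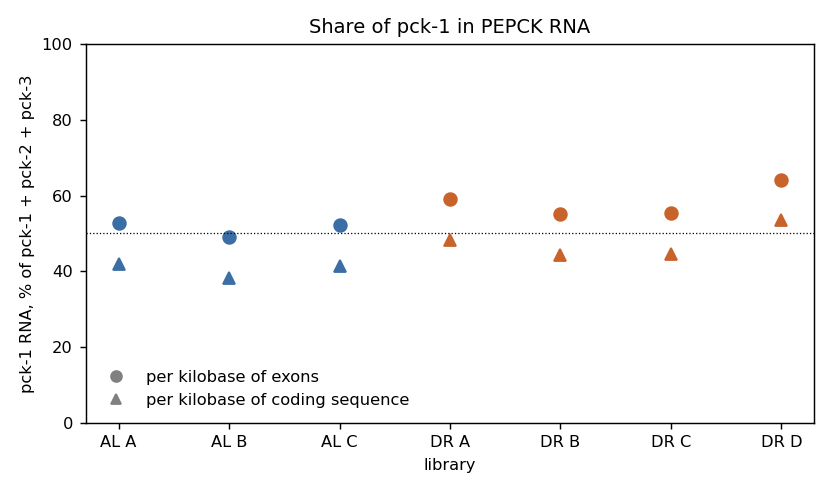
Share of pck-1 in the summed RNA of pck-1, pck-2 and pck-3 (vertical axis, percent) in each library, AL in blue and DR in orange, with circles for levels per kilobase of exons and triangles for levels per kilobase of coding sequence. Per kilobase of exons AL libraries lay between 48.9% and 52.8% and DR libraries between 55.2% and 64.1%.

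The last enzyme gene, fbp-1, was read at 61.3 CPM in AL A, 60.1 in AL B and 55.2 in AL C. In DR progeny it was read at 60.8 CPM in DR A, 67.5 in DR B, 64.1 in DR C and 68.9 in DR D. Of the DR libraries 3 lay above all AL libraries and DR A lay inside the AL range. The means were 58.9 ± 3.20 CPM (SD, n = 3) and 65.3 ± 3.62 CPM (SD, n = 4), with a log2 fold change of 0.15 ± 0.088 (SE) and a 95% interval from −0.042 to 0.34 (adjusted p = 0.554, edgeR). It stayed positive with each library left out, between 0.11 and 0.18. The authors' deposited table gives 0.15 with an adjusted p-value of 0.756. With a highest value only 1.25 times its lowest, fbp-1 varied least of the 6 genes over the 7 libraries, where icl-1 reached 3.47 times.

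**Figure D4:**
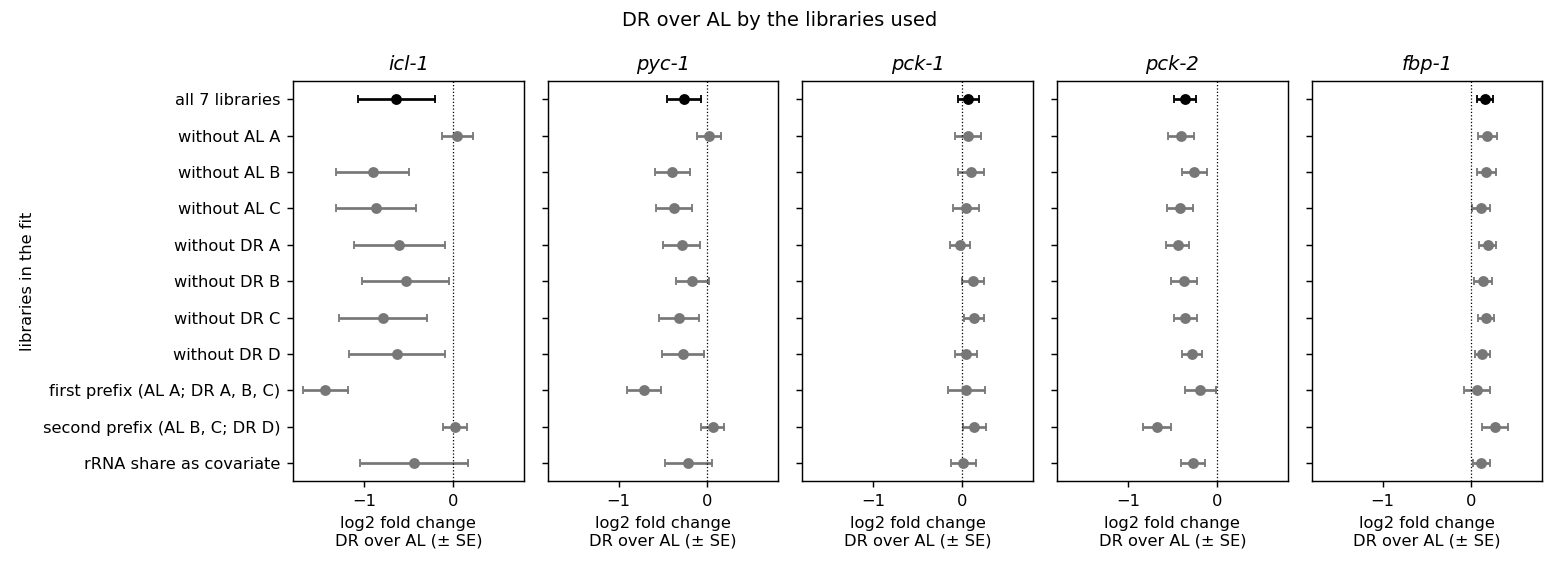
Log2 fold change of DR over AL (horizontal axes) with its SE for the 5 tested genes, in the fit to all 7 libraries (black) and in fits without each library, to libraries of each file-name prefix and with rRNA share as covariate (grey). The values of icl-1 and pyc-1 moved from −0.63 and −0.26 to 0.052 and 0.020 without AL A, while pck-2 was negative in every fit shown.

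The genes closest to pck-2 over the 7 libraries were srw-86 and tank-1 (Pearson values of 0.996 and 0.995), and those closest to pck-1 were the glutamate receptor gene glr-6 and the kinase suppressor gene ksr-1 (0.972 and 0.966). Those closest to fbp-1 were lurp-1 and snrp-27 (0.991 and 0.966), the latter a gene of the spliceosome. With 9902 genes to choose from and 7 libraries, such values describe the order of the libraries and nothing more. Among pairs of the genes described, pck-2 and fbp-1 had the lowest Pearson value, −0.733, with a Spearman value of −0.786 over 7 libraries. In similarity to pck-2, fbp-1 ranked 8875 of 9902 genes, so many other genes ran against pck-2 more strongly.

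The neighbouring steps of the pathway were read from lists of other genes, and no gene of these lists passed the test in either direction. Of the enzymes that glycolysis and gluconeogenesis share, 5 of 10 tested genes had a log2 fold change above 0 and 5 below, with a median of −0.029. The lowest were the glyceraldehyde phosphate dehydrogenase genes gpd-1 (−0.40) and gpd-4 (−0.38, adjusted p = 0.376, edgeR), which encode closely similar proteins, so that the split of reads between them is uncertain. Libraries of the AL group held 9.99 to 12.3 CPM of gpd-4 and those of the DR group 7.73 to 9.96 CPM, so that the groups were barely apart. Of the one-way glycolytic steps, which run against gluconeogenesis, 5 of 7 were below 0, with a median of −0.039. The lowest were the phosphofructokinase gene pfk-1.2 (−0.25) and the pyruvate kinase gene pyk-2 (−0.18).

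In the citric acid cycle 13 of 24 tested genes were below 0 and 11 above, with a median of −0.030. The lowest were ogdh-2 (−0.27) of the oxoglutarate dehydrogenase family and aco-1 (−0.27), the cytosolic aconitase gene. Libraries of the AL group held 135 to 144 CPM of aco-1 and those of the DR group 112 to 122 CPM, without overlap (adjusted p = 0.376, edgeR). Malate dehydrogenase RNA, whose enzymes make oxaloacetate from the malate that the bypass yields, stood at 202 ± 12.4 and 211 ± 16.4 CPM for the cytosolic mdh-1 and at 158.5 ± 22.3 and 172.5 ± 27 CPM for the mitochondrial mdh-2 in AL and DR progeny, so that each differed by less than its spread. Of the genes that supply or use pyruvate and oxaloacetate, 7 of 12 were above 0, with a median of 0.023, and the largest differences were those of the mitochondrial pyruvate carrier gene mpc-1 (0.18, and 0.037 without DR C) and the pyruvate dehydrogenase gene pdhb-1 (0.18).

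Fatty acid breakdown, which supplies the acetyl-CoA for the bypass, had 15 of 27 genes above 0 and 12 below, with a median of 0.028. Its largest differences were those of ech-1.1, of the enoyl-CoA hydratase family, and of acs-2 (−0.72). The former was read at 1.97 ± 1.18 CPM with AL parents and 0.46 ± 0.35 CPM with DR parents, a log2 difference of −2.13 ± 0.60 (SE) that did not pass (adjusted p = 0.374, edgeR). For acs-2 the value turned to 0.73 without AL A, as icl-1 did. Trehalose and glycogen genes, at the far end of the pathway, had 10 of 13 below 0 and a median of −0.098, with tre-5, a trehalase gene (−0.70), and agl-1, the glycogen debranching enzyme gene (−0.35), the lowest. Genes of regulators had 12 of 18 below 0 and a median of −0.11, the lowest being the insulin receptor gene daf-2 (−0.59, adjusted p = 0.371, edgeR) and the transcription factor gene pqm-1 (−0.30).

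**Figure D5:**
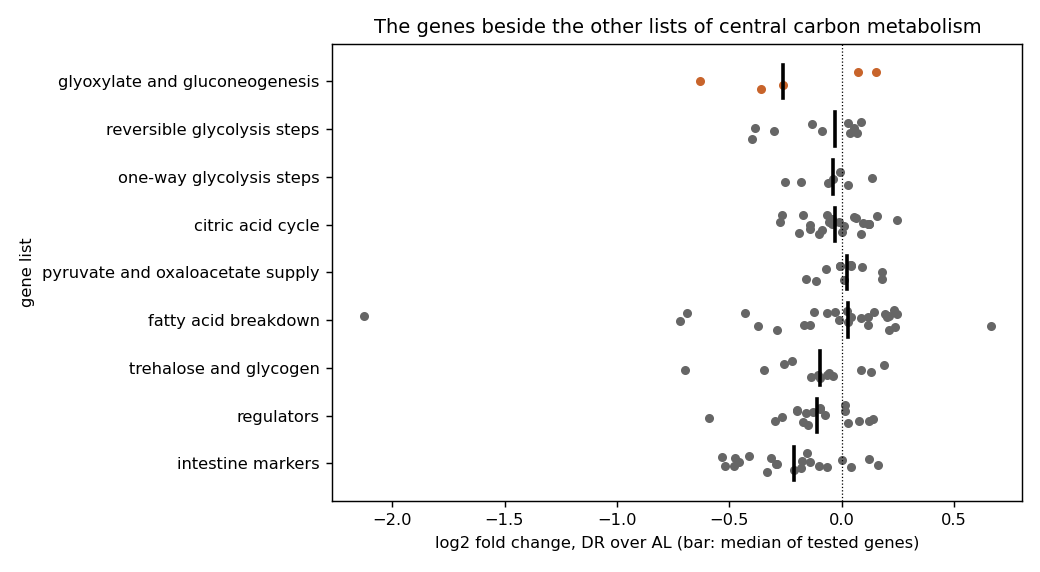
Log2 fold change of DR over AL (horizontal axis) for each tested gene of the glyoxylate and gluconeogenesis genes (orange) and of 8 other gene lists (grey), with vertical bars at list medians; the vertical spread within a list is arbitrary. The orange points lay between −0.63 and 0.15 with a median of −0.26, which was 0.052 without AL A, and the intestine markers had a median of −0.21.

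Markers of other tissues were read beside these genes, since whole larvae were used. Body wall muscle markers had 9 of 13 tested genes below 0 and a median of −0.085, with unc-22 (−0.32) and myo-3 (−0.30) lowest, and summed to 12346 to 12567 CPM in AL and 9563 to 12359 CPM in DR libraries. Hypodermis markers had 9 of 12 below 0 and a median of −0.074, with sqt-3 (−0.77, and −0.19 without AL B) and dpy-10 (−0.37, and 0.56 without AL B) lowest, and summed to 238 to 319 and 227 to 320 CPM. Pharynx markers were all 8 above 0, with a median of 0.31, led by ceh-22 (0.51) and tnt-4 (0.40), and summed to 2715 to 3545 and 3118 to 3790 CPM. Neuron markers had 9 of 14 above 0 and a median of 0.038, the largest differences being those of unc-64 (−0.26) and unc-31 (−0.25), and summed to 4167 to 4542 and 4266 to 4654 CPM. Germline markers had 8 of 12 below 0 and a median of −0.12, with mex-5 (−0.56) and pgl-1 (−0.26) lowest, and summed to 146 to 155 and 129 to 158 CPM. No marker of these lists passed the test, and the body wall muscle marker hlh-1 was listed at 0 in all 7 libraries, as were gpd-2 and pdha-1 of the pathway lists. Such zeros were not taken as absence of RNA, and whether they come from the assignment of reads to genes was not tested. In AL A, where icl-1 was 2.75 times its mean in the other 6 libraries, the mean deviation of the intestine markers was also at its highest (0.18 on the log2 scale, against 0.097 and 0.13 in AL B and AL C). Their summed level was the lowest of the AL libraries there (16803 CPM, against 17089 and 17775 CPM), and 6 of the 21 were highest in AL A. The mean deviation was highest in AL A also for fatty acid breakdown (0.22), regulators (0.13), trehalose and glycogen genes (0.12), the citric acid cycle (0.095) and one-way glycolysis (0.077). It was not highest there for the shared glycolysis steps, for pyruvate and oxaloacetate supply, or for muscle, pharynx, hypodermis, neuron and germline markers. Of 23 fatty acid breakdown genes with a mean of at least 5 CPM, 4 were highest in AL A. The median excess of the 23 genes over the other 6 libraries was 0.063, so their mean rested on a few genes such as acs-2 and lipl-3. The part of these genes in the level of icl-1 was not tested.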

How the data were processed

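Counts were deposited raw, as 1 file of HTSeq output per library. The submitters' processing notes name Bowtie 1.1.2 as aligner, HTSeq and edgeR. No source used here gives the genome build or annotation, so no coordinates are printed. Per the labels, the kit was non-directional, with 12 PCR cycles. The authors' workbook, per its notes, holds CPM of genes with CPM above 1 in 3 libraries, and log2 fold changes, p-values and adjusted p-values from an exact test. The deposited CPM entered no test.

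HTSeq's summary lines, 22.2% to 24.0% of each library's reads, were left out. Symbols and lengths came from the Ensembl annotation of WBcel235, which named 44443 of 44968 features. The whole table was fitted in R 4.3.3 with edgeR 4.0.16 (TMM, filterByExpr, robust quasi-likelihood F-test, two-sided), and p-values were adjusted by Benjamini-Hochberg over 14867 genes. The fit was tested on simulated data with the same spread for every gene and no deviant library, so that test does not cover a library such as AL A. SEs are the log2 fold change over the root of F. P-values set the difference between the groups against the spread between these libraries, which may be technical. The floor for a reading of 0 is 3 counts, or 0.131 to 0.180 CPM, and covers counting error only.

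The genes and lists were chosen with earlier results of these data known. Named are all 6 genes, the 2 genes with the largest absolute log2 fold change in each of 13 other lists, as none passed, and the 4 (icl-1) or 2 (others) most similar genes with a mean of at least 5 CPM. Malate dehydrogenase genes and the genes described for AL A were named with their values known. Other settings covered normalisation, filters, tools (DESeq2 1.42.0, limma-voom 3.58.1, exact test), replicate letters as a block, file-name prefixes, rRNA and each library left out. Coding lengths were added after seeing the data. Of 15 listed genes of pyruvate and oxaloacetate supply, 13 were matched.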

Additional observations from a re-analysis of the deposited data

How the results depend on the processing

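None of the 5 tested genes was called in any alternative run except pck-2 in the fit to the second file-name prefix, where 1 gene of the 5 was called (log2 fold change −0.67) against the single library DR D, which is there assumed to vary like the AL libraries. Over all 22 alternatives pck-2 stayed below 0 (−0.67 to −0.19) and fbp-1 above 0 (0.066 to 0.26). The median of the 5 genes turned to 0.052 without AL A and to 0.060 in the second prefix.

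Directions turned for icl-1 and pyc-1 without AL A (0.052 and 0.020) and in the second prefix (0.029 and 0.060), and for pck-1 without DR A (−0.026). With single libraries left out, log2 fold changes ranged from −0.90 to 0.052 for icl-1, −0.39 to 0.020 for pyc-1 and −0.026 to 0.13 for pck-1. Among other named genes acs-2 turned in the second prefix (1.73) and without AL A (0.73, with −1.26 the lowest when single libraries were left out), and dpy-10 with the prefix as a covariate (0.080) and without AL B (0.56, with −1.09 the lowest). With single libraries left out, sqt-3 ranged from −1.91 to −0.19 and mpc-1 from 0.037 to 0.31. In the first prefix gpd-1 (0.14), sqt-3 (0.93), dpy-10 (1.27) and mex-5 (0.29) turned.

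Over all genes, the counts called higher and lower in DR were 2 and 0. They were 27 and 50 with no filter, 16 and 25 by DESeq2, 10 and 14 by the exact test, 0 and 0 by limma-voom, without robust estimation, with the rRNA share as a covariate and in the first prefix, 1 and 0 with library size only, and 191 and 425 in the second prefix. With 1 library left out the higher count ranged from 0 to 2 and the lower count stayed at 0. The causes were not tested.

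The replicate letters were not taken as pairs in the main fit. Deviations from group means correlated at 0.197 and 0.268 for letters A and B and at −0.101 for letter C. Across letters, AL A with DR C gave 0.233 and AL C with DR B gave 0.253. Deviations that sum to 0 within such small groups cannot settle whether the letters mark pairs. The fit with the replicate block also leaves out DR D, which has no partner. It called 2 genes higher and 2 lower, with pck-2 at −0.27 and icl-1 at −0.46, where leaving out DR D alone gave 2 and 0, −0.28 and −0.62.

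The share of pck-1 in PEPCK RNA, 51.3% and 58.5% per kilobase of exons in AL and DR progeny, was 39.6% and 46.7% without division by length.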
